A study of Macaca mulatta with 33 samples.

Results

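Corpora lutea exposed to 6 days of simulated early pregnancy were compared with untreated corpora lutea of the rhesus macaque (Macaca mulatta). The comparison used 8 of the 33 arrays of the series, chosen by their labels: day 15 hCG replicates 1, 2, 4 and 5, and untreated day 10 replicates 1 to 4, all of array set 1. The corpora lutea labelled day 15 hCG came from adult cycling females that received human chorionic gonadotropin (hCG) in increasing doses starting on day 9 of the luteal phase, and the tissue was taken on luteal day 15 after 6 days of hormone. The untreated corpora lutea were collected on luteal day 10 with no hormone. A further 4 arrays of set 1, labelled day 10 hCG, held corpora lutea of luteal day 10 after 1 day of hCG and served as a comparison in time. None of these 12 samples received trilostane, an inhibitor of 3 beta-hydroxysteroid dehydrogenase, or R5020, a synthetic progestin, which other groups of the series did. No untreated group of luteal day 15 was analysed here, so the effect of hCG and that of 5 more luteal days cannot be told apart. The labels do not say whether the samples of a group came from separate animals. The p-values measure only the spread between samples within groups. They came from a fit of 16 arrays of set 1, which also held 4 day 10 arrays with hCG and trilostane.

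The corpus luteum forms from the ovulated follicle and secretes progesterone, which it makes from cholesterol taken up from lipoproteins or synthesised in the cell. In a primate cycle without conception it regresses, whereas the chorionic gonadotropin of an implanting embryo binds the luteinising hormone receptor, raises cyclic AMP in the luteal cells and prolongs progesterone secretion. Besides steroid-making cells derived from granulosa and theca, the gland holds a dense capillary bed, pericytes, fibroblasts and white blood cells. The arrays measured RNA of whole glands, in which fewer cells of a type and less RNA per cell cannot be told apart.

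Each value below is a log2 intensity of 1 Affymetrix probe set after each array was centred on its median, so that a difference of 1 is a 2-fold change and levels of different genes cannot be set against each other. A gene is represented by its brightest probe set with a single gene symbol. Of 52707 probe sets, 27867 passed the filter on low values and 17159 of these carried 1 symbol, which gave 10285 genes. A gene is said to have risen or fallen where its p-value, from a limma fit adjusted by the Benjamini-Hochberg method over all 27867 probe sets, was under 0.05. Errors of differences are standard errors, and n = 4 in each group.

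The array labels and the arrays' own values bear on how far the 4 day 15 hCG samples can be treated as equals. Day 15 hCG replicate 5 carries in its array name the same sample number as day 15 hCG replicate 3 of array set 3. The differences between those 2 arrays over all kept probe sets had an SD of 0.20, against 0.42 to 0.48 for pairs of day 15 hCG arrays within set 1 and 0.34 to 0.43 for pairs of untreated arrays, so they were counted as 1 sample and replicate 3 was used only as a check. The titles of the 4 untreated arrays and of the other day 15 hCG arrays carry the word reanalysis, and that of replicate 5 does not. What the word means is not stated. Replicate 5 was also closer to untreated replicate 3 (0.35) than to any other day 15 hCG array of set 1. The same held for day 15 hCG replicate 2, at 0.46 from untreated replicate 2 and 0.47 to 0.48 from the other day 15 hCG arrays. In both cases the day 15 hCG array and the untreated array carry the same sample number in their array names. Of the 268 genes that rose, replicate 5 was the day 15 hCG array nearest to the untreated mean for 117, and of the 163 that fell, for 74. Left out, it moved the counts over probe sets to 722 higher and 401 lower, and 216 of the 268 risen genes and 135 of the 163 fallen genes remained called. Of 6 measured luteal cell markers, STAR and FDX1, of steroid synthesis, had mean log2 intensities of 14.79 and 13.90 in day 15 hCG arrays. They had 14.51 and 13.99 in untreated arrays, on a scale that ended at 15.12. Other markers of that list went down: HSD3B2 and NR5A2 fell by 1.12 and 0.72, and 2 of the 6 differences lay above 0.

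After 6 days of hCG, 643 probe sets were higher (2.31 percent of those tested) and 391 were lower (1.4 percent) than in untreated corpora lutea, 3.71 percent in all. At an unadjusted p under 0.05 the number was 4704. Among genes with 1 symbol, 268 rose (2.61 percent) and 163 fell (1.58 percent). All 4 day 15 hCG arrays lay above all 4 untreated arrays for 254 of the risen genes and below them for 151 of the fallen genes. Such separation was found for 7.04 percent of all 10285 genes upwards and 4.19 percent downwards. The risen genes had a median log2 difference of 0.82, with 87 above 2-fold and 7 above 4-fold. The fallen genes had a median of -0.84, with 57 beyond 2-fold and 10 beyond 4-fold. The check array, replicate 3, lay beyond all 4 untreated arrays on the same side for 256 of the 268 and 151 of the 163. Replicate 5, counted as the same sample, did so for 263 and 157. Because replicate 5 took part in the calls, replicate 3 is no independent check of them. Leaving out any single array of the 8 left 105 of the risen and 68 of the fallen genes called in every fit.

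**Figure D1:**
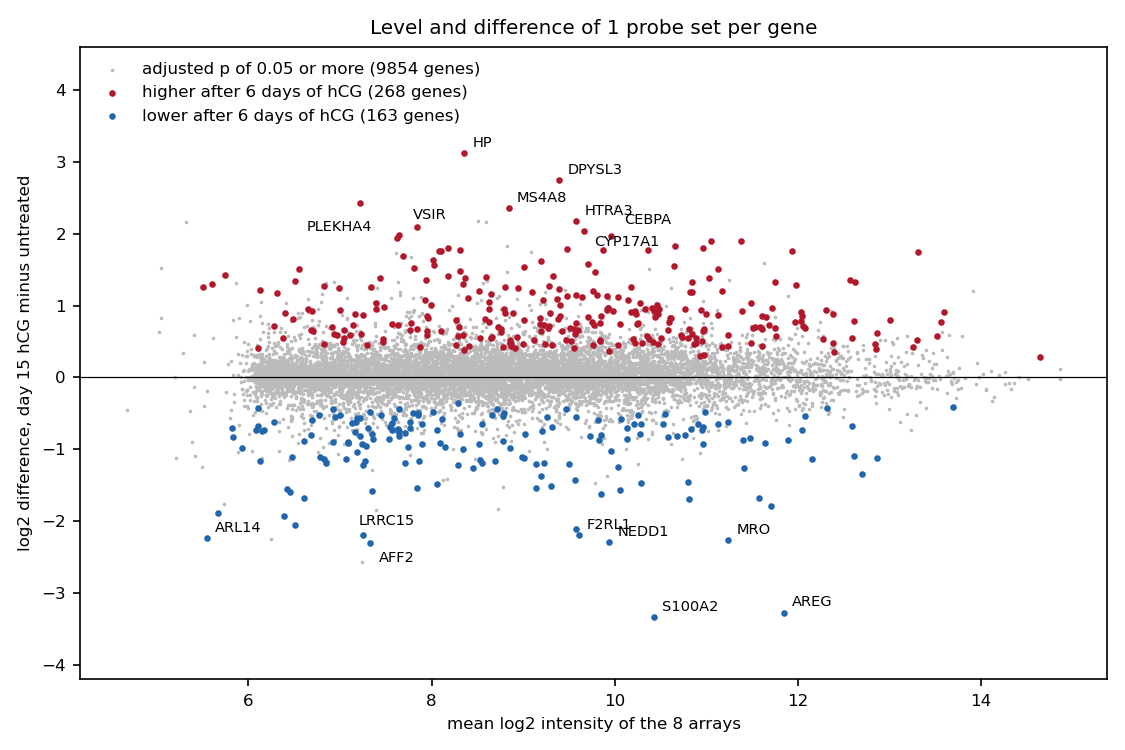
Each point is 1 gene, with its mean log2 intensity over the 8 arrays on the horizontal axis and the log2 difference, day 15 hCG minus untreated, on the vertical axis. The 268 risen genes are red and the 163 fallen genes blue; HP rose by 3.13 at the top and S100A2 lies at -3.34 at the bottom.

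Most of the measured genes for making cholesterol rose. Of the 13 measured genes of a cholesterol synthesis list, 8 rose and none fell, and the list's median log2 difference was 1.27, against 0.04 over all genes. Over all genes 2.61 percent rose and 1.58 percent fell, and the list counts below stand beside these shares. EBP, the sterol isomerase late in the pathway, read 11.92, 12.19, 12.43 and 11.50 in day 15 hCG arrays and 9.79, 10.24, 10.61 and 9.76 in untreated arrays. Its groups did not overlap, and the difference was 1.90 ± 0.24, a 3.74-fold rise (adjusted p = 0.00087), with 1.88 at its other probe set.

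DHCR7, which catalyses the last step, averaged 10.00 ± 0.62 in day 15 hCG arrays and 8.38 ± 0.37 in untreated arrays (SD, n = 4 each), a rise of 1.62 ± 0.29. IDI1, the isopentenyl diphosphate isomerase, read 11.72, 12.10, 12.11 and 11.61 in day 15 hCG arrays and 10.09, 10.46, 10.91 and 10.04 in untreated arrays. It rose by 1.51 ± 0.21 (adjusted p = 0.0015), and its other 2 probe sets rose by 1.76 and 2.07. SQLE, the squalene epoxidase, rose by 1.41 ± 0.31, CYP51A1, the lanosterol demethylase, by 1.39 ± 0.25, and FDFT1, the squalene synthase, by 1.32 ± 0.21. MVD, which makes isopentenyl diphosphate, rose by 1.27 ± 0.23 and NSDHL, which works on sterol intermediates, by 0.96 ± 0.25. Among these 8 genes every day 15 hCG array lay above every untreated array. HSD17B7 and TM7SF2 differed by 0.76 and 0.70 without passing the test (adjusted p = 0.19 and 0.087). FDPS, PMVK and MVK differed by -0.04, 0.25 and 0.07 (adjusted p = 0.93, 0.48 and 0.86). Within the day 15 hCG group replicate 4 was the highest array for each of the 8 risen members, and the summed linear level of the list ran from 25981 to 42252 there, lowest in replicate 5, and from 12636 to 18778 in untreated arrays. Between 6 and 8 members remained called when single arrays were left out.

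Of the 17 measured genes for sensing and handling sterols, 1 rose. INSIG1, which holds the sterol-sensing complex in the endoplasmic reticulum, read 10.70, 10.17, 10.99 and 10.06 in day 15 hCG arrays and 9.11, 9.13, 9.77 and 9.38 in untreated arrays, a rise of 1.14 ± 0.25 (adjusted p = 0.019). Its call ended when any of 4 single arrays was left out (adjusted p up to 0.071), and its other probe set rose by 1.18. The transcription factor genes of the pathway, SREBF2 and SREBF1, differed by 0.19 and 0.58 (adjusted p = 0.53 and 0.20), and VLDLR, a lipoprotein receptor, by 0.83 (adjusted p = 0.11). Of 12 genes of fatty acid synthesis and desaturation, 3 rose and none fell, with a list median of 0.31 (0.21 without day 15 hCG replicate 4, 0.56 with the stricter 75th percentile filter). ACSS2, which activates acetate, averaged 8.62 ± 0.46 in day 15 hCG arrays and 7.27 ± 0.18 in untreated arrays, a rise of 1.35 ± 0.23 (adjusted p = 0.0039). FADS2, a fatty acid desaturase, rose by 1.78 ± 0.39 at 1 probe set, whereas its other probe set differed by -0.10. ACSL1, an acyl-CoA synthetase, rose by 0.84 ± 0.21. The calls of FADS2 and ACSL1 ended when any of 5 and 6 single arrays was left out (adjusted p up to 0.073 and 0.11).

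The steroid synthesis genes did not share a direction: of 17 measured, 3 rose and 1 fell, with a median of 0.28. CYP17A1, which makes androgen precursors, read 10.78, 10.63, 11.05 and 10.25 in day 15 hCG arrays and 8.89, 9.12, 8.55 and 8.01 in untreated arrays. Its groups were separated by more than 1 log2 unit, and it rose by 2.04 ± 0.27 (4.10-fold, adjusted p = 0.0011). HSD3B2, whose enzyme converts pregnenolone to progesterone, read 12.51, 12.09, 11.90 and 12.74 in day 15 hCG arrays and 13.12, 13.39, 13.73 and 13.44 in untreated arrays. It fell by 1.12 ± 0.19 (2.17-fold, adjusted p = 0.0049) with no overlap. STAR, which brings cholesterol to the inner mitochondrial membrane, averaged 14.79 ± 0.05 in day 15 hCG arrays and 14.51 ± 0.06 in untreated arrays. Its rise of 0.28 ± 0.06 (adjusted p = 0.016) sat near the top of the array's range, and the call ended when untreated replicate 1, untreated replicate 4 or day 15 hCG replicate 4 was left out (adjusted p up to 0.061).

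POR, the electron donor of microsomal P450 enzymes, rose by 0.86 ± 0.16 at its brightest probe set, but its other 3 probe sets differed by -0.34 to -0.13. CYP19A1, the aromatase that makes oestrogens, averaged 13.49 ± 0.56 in day 15 hCG arrays and 12.91 ± 0.44 in untreated arrays, and its difference of 0.58 ± 0.30 did not pass the test (adjusted p = 0.36). CYP11B1, an 11 beta-hydroxylase best known from the adrenal cortex, read 10.44, 9.37, 9.87 and 8.68 in day 15 hCG arrays and 8.19, 6.65, 6.06 and 8.77 in untreated arrays. Those groups overlapped, and the difference of 2.17 ± 0.58 had an adjusted p of 0.053. HSD11B1, which regenerates active glucocorticoid, averaged 12.22 ± 0.15 in day 15 hCG arrays and 12.77 ± 0.03 in untreated arrays, without overlap, yet with an adjusted p of 0.10.

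**Figure D2:**
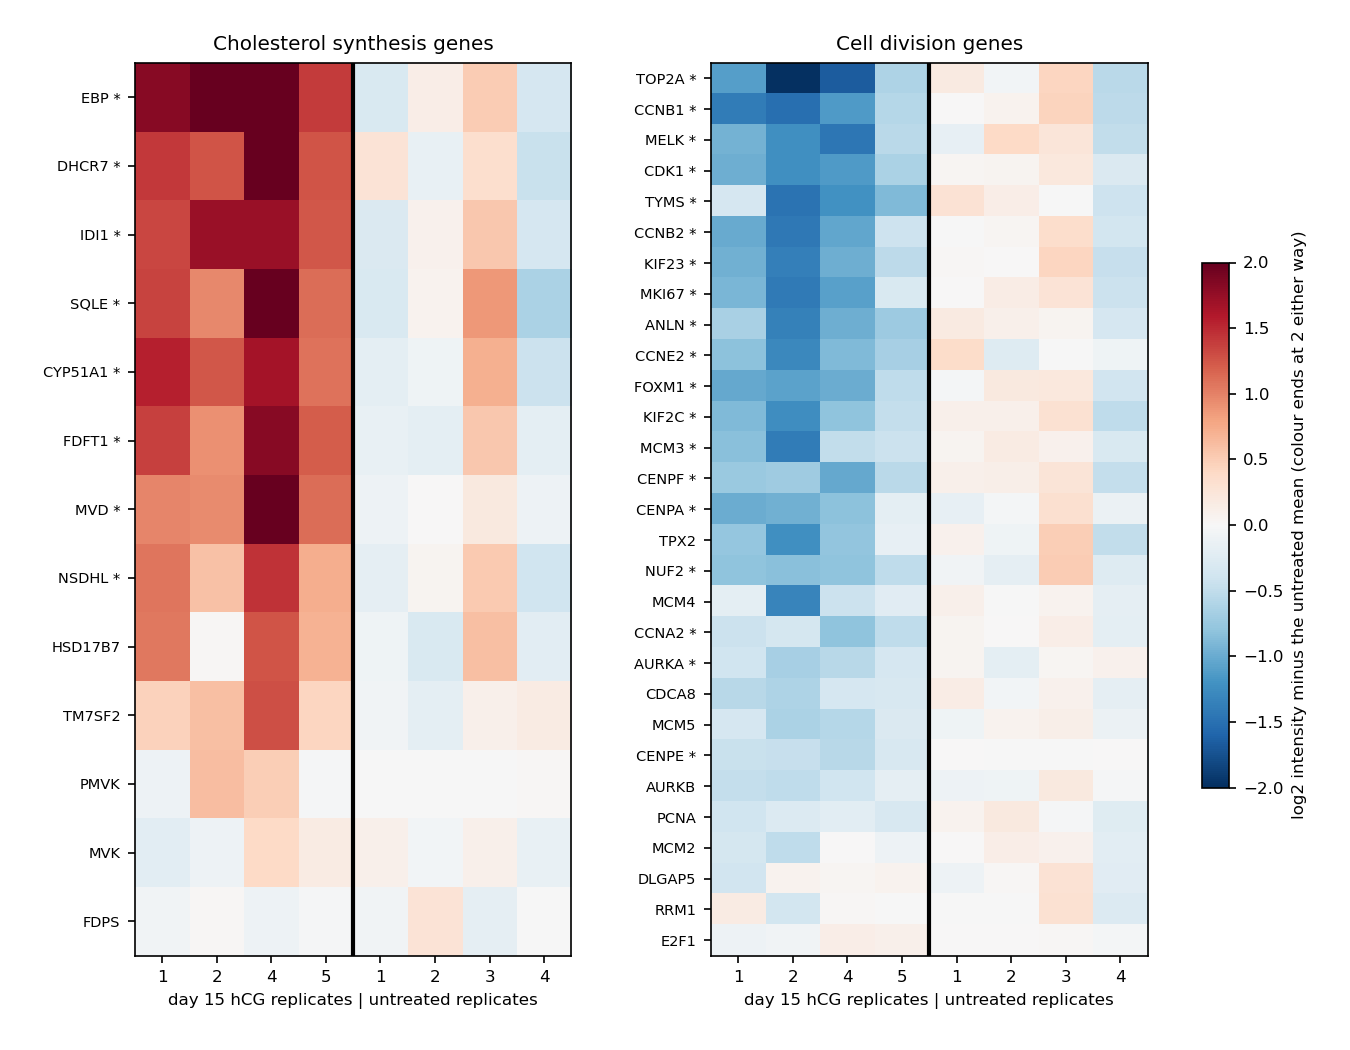
Colours give each array's log2 intensity minus the untreated mean of that gene, for 13 cholesterol synthesis genes at left and 29 cell division genes at right; columns are day 15 hCG replicates 1, 2, 4 and 5 and then untreated replicates 1 to 4, and a star marks a gene that passed the test. The 8 starred cholesterol genes are red in all 4 day 15 hCG columns, and most cell division genes are blue there, palest in replicate 5.

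The largest rise among named genes was that of HP (probe set MmuSTS.598.1.S1_at), which encodes haptoglobin, the scavenger of free haemoglobin. It read 10.94, 9.79, 10.83 and 8.12 in day 15 hCG arrays and 7.08, 6.17, 6.58 and 7.35 in untreated arrays, a difference of 3.13 ± 0.58 (8.73-fold, adjusted p = 0.0079). All 4 day 15 hCG arrays were higher, with replicate 5 well under the other 3. The check array, counted as the same sample as replicate 5, read 8.32. CYBRD1, a ferric reductase, read 12.25, 12.64, 12.38 and 12.07 in day 15 hCG arrays and 9.96, 10.70, 10.86 and 10.22 in untreated arrays. It rose by 1.90 ± 0.20 (adjusted p = 0.00026), and by 2.20 at its other probe set. FTL, the light chain of the iron store ferritin, was the only called member of 15 iron, copper and zinc genes and rose by 0.91 ± 0.17. TFRC, the transferrin receptor, and SLC40A1, the iron exporter, differed by -0.22 and 0.20 (adjusted p = 0.71 and 0.67).

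DPYSL3, a cytoskeletal protein of growing neurites, read 10.73, 11.28, 11.52 and 9.54 in day 15 hCG arrays and 8.25, 7.53, 7.83 and 8.50 in untreated arrays, a rise of 2.74 ± 0.56 (6.69-fold, adjusted p = 0.013). With day 15 hCG replicate 4 left out DPYSL3 was no longer called (adjusted p = 0.051). MS4A8, a membrane protein of the MS4A family, read 10.32, 9.91, 10.38 and 9.47 in day 15 hCG arrays and 8.10, 7.27, 7.68 and 7.60 in untreated arrays. It rose by 2.36 ± 0.31 (5.14-fold, adjusted p = 0.0010). TRPM3, a cation channel, read 8.34, 9.29, 8.59 and 8.16 in day 15 hCG arrays and 6.60, 6.49, 6.86 and 6.66 in untreated arrays, and rose by 1.94 ± 0.21 (adjusted p = 0.00026). For each of these genes the lowest day 15 hCG array exceeded the highest untreated array, which the choice of the largest rises required.

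HTRA3, a secreted serine protease, read 11.02, 9.33, 10.59 and 11.72 in day 15 hCG arrays and 8.10, 8.27, 9.28 and 8.30 in untreated arrays. The 2 groups nearly touched, at 9.33 and 9.28, and the rise of 2.18 ± 0.48 (adjusted p = 0.020) lost its call when any of 5 single arrays was left out (adjusted p up to 0.069). VSIR, an immune checkpoint receptor, rose by 2.09 ± 0.37, with 8.58 to 9.48 in day 15 hCG arrays and 6.29 to 7.30 in untreated arrays. PLEKHA4, a membrane lipid binding protein, rose by 1.98 ± 0.28, and its other probe set by 1.20. CEBPA, a transcription factor of differentiated fat, liver and myeloid cells, averaged 10.95 ± 0.33 in day 15 hCG arrays and 8.98 ± 0.20 in untreated arrays, a rise of 1.96 ± 0.26 (adjusted p = 0.0011), with rises of 1.59 and 1.64 at its other 2 probe sets.

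ZDHHC19, of the palmitoyl transferase family, had the tightest day 15 hCG values of the large rises: 10.77, 10.69, 10.76 and 10.81 in day 15 hCG arrays and 8.83, 9.00, 9.19 and 8.92 in untreated arrays, a difference of 1.77 ± 0.18 (adjusted p = 0.00022). TOB1, which restrains cell proliferation, rose by 1.80 ± 0.28, and its other probe set rose as well. VSNL1, a neuronal calcium sensor, rose by 1.76 ± 0.33 and by 1.73 at its other probe set. XKRX, of the XK family of membrane proteins, rose by 1.80 ± 0.27, and TMEM200C, a transmembrane protein, by 1.75 ± 0.38. The call of TMEM200C ended when any of 4 single arrays was left out (adjusted p up to 0.067). PSME3, a proteasome activator subunit, and MGARP, a mitochondrial protein abundant in steroid-making tissue, rose by 1.83 ± 0.23 and 1.76 ± 0.19 at their brightest probe sets only. The other probe set of PSME3 differed by 0.12 and the other 3 of MGARP by 0.02 to 0.19. Of the 20 named genes with the largest rises, 16 remained called whichever single array was left out, and all 20 without replicate 5.

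**Figure D3:**
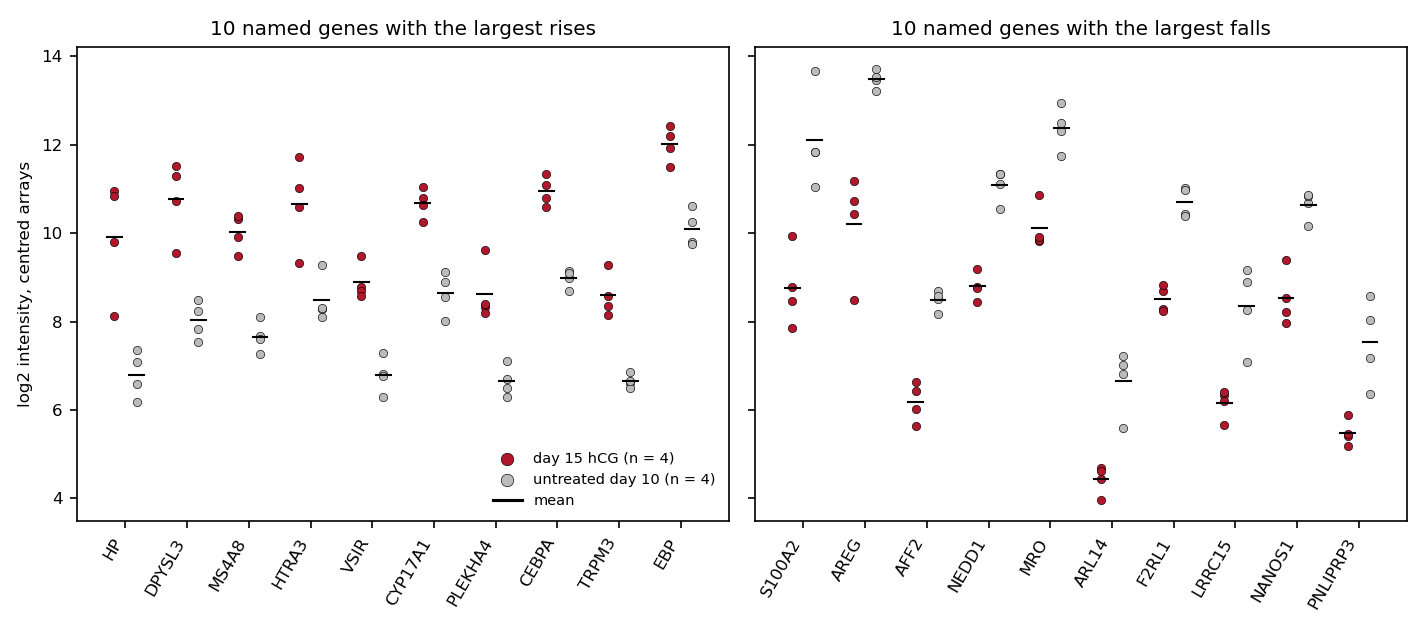
Points are single arrays and bars the mean of 4, in log2 intensity, for the 10 named genes with the largest rises (left panel) and the 10 with the largest falls (right panel); day 15 hCG is red and stands left of untreated in grey. The genes were chosen among those whose groups do not overlap. HTRA3 comes nearest to overlap, at 9.33 in the lowest day 15 hCG array and 9.28 in the highest untreated array.

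The largest fall was that of S100A2, a calcium-binding protein. It read 7.85, 8.78, 8.46 and 9.94 in day 15 hCG arrays and 11.84, 13.67, 11.83 and 11.04 in untreated arrays, and fell by 3.34 ± 0.50 (10.1-fold, adjusted p = 0.0023). Every day 15 hCG array was at least 1 log2 unit under the lowest untreated array. AREG (probe set MmugDNA.10712.1.S1_at), amphiregulin, a ligand of the EGF receptor, read 11.19, 8.49, 10.44 and 10.73 in day 15 hCG arrays and 13.72, 13.22, 13.47 and 13.53 in untreated arrays. It fell by 3.27 ± 0.41 (9.67-fold, adjusted p = 0.00087). The check array, counted as the same sample as replicate 5, read 10.9.

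NEDD1, which brings the microtubule nucleating complex to the centrosome, read 8.78, 9.20, 8.76 and 8.44 in day 15 hCG arrays and 11.32, 10.55, 11.34 and 11.11 in untreated arrays. All 4 of its probe sets fell, the brightest by 2.29 ± 0.21 (4.88-fold, adjusted p = 7e-05) and the others by 2.34 to 2.40. F2RL1, a protease-activated receptor of the G protein coupled family, read 8.70, 8.82, 8.28 and 8.24 in day 15 hCG arrays and 11.02, 10.43, 10.98 and 10.39 in untreated arrays, a fall of 2.20 ± 0.34 (adjusted p = 0.0028), with 1.86 at its other probe set. F2RL1 alone passed the test among 22 complement and coagulation genes. Its relatives F2R, the thrombin receptor, and F2RL2 differed by -0.64 and -1.12 (adjusted p = 0.073 and 0.20). NANOS1, a translational repressor, fell by 2.11 ± 0.52, with 7.97 to 9.39 in day 15 hCG arrays and 10.16 to 10.87 in untreated arrays. Its call ended when any of 6 single arrays was left out (adjusted p up to 0.11), replicate 5 among them.

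For 9 of the 20 largest falls the day 15 hCG mean lay under 6.21, the median of all values, so that the fold is given as a bound. AFF2, of a family of transcription elongation scaffolds, read 6.64, 6.42, 5.63 and 6.02 in day 15 hCG arrays and 8.50, 8.16, 8.70 and 8.57 in untreated arrays, at least 4.82-fold lower (adjusted p = 7e-05). LRRC15, a membrane protein of activated stromal cells, was at least 4.41-fold lower, with 5.67 to 6.41 in day 15 hCG arrays and 7.09 to 9.16 in untreated arrays. Its adjusted p of 0.042 passed 0.05 when any of 7 single arrays was left out, up to 0.13, and was 0.063 without replicate 5. PNLIPRP3, related to pancreatic lipase, was at least 2.50-fold lower, TNFRSF11B, osteoprotegerin, at least 2.20-fold, and ARL14, a small GTPase, at least 1.37-fold. TMEM200A, a transmembrane protein, was at least 1.32-fold lower. For TMEM200A the day 15 hCG arrays lay between 4.62 and 4.82 and the untreated arrays between 6.21 and 7.55, so its untreated level was itself close to the bound.

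MRO and GPI fell at their brightest probe set but not at the others. GPI, the glucose phosphate isomerase of glycolysis, read 10.42, 9.86, 9.60 and 9.97 in day 15 hCG arrays and 11.57, 12.05, 11.55 and 11.47 in untreated arrays, a fall of 1.70 ± 0.22, whereas its other 2 probe sets differed by 0.27 and 0.37. MRO fell by 2.26 ± 0.39, and its other 2 probe sets differed by 0.26 and 0.29. ENC1, an actin-binding kelch protein, fell by 1.79 ± 0.43, ULK4, of the ULK kinase family, by 1.68 ± 0.31, and DSP, the desmosome protein desmoplakin, by 1.59 ± 0.32. TNFRSF12A, the receptor of the cytokine TWEAK, read 8.63, 9.55, 9.36 and 9.55 in day 15 hCG arrays and 11.01, 11.05, 10.94 and 10.37 in untreated arrays, a fall of 1.57 ± 0.31. Of the 20 named genes with the largest falls, 16 remained called whichever single array was left out; ENC1 lost its call without any of 5 arrays (adjusted p up to 0.11) and TDRD9, described further on, without untreated replicate 1 (adjusted p = 0.052).

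Most of the measured genes of cell division fell. Of 29 measured, 19 fell and none rose, and the median log2 difference was -0.74. TOP2A, which untangles replicated DNA, read 8.79, 7.79, 8.22 and 9.26 in day 15 hCG arrays and 10.07, 9.82, 10.31 and 9.34 in untreated arrays, a fall of 1.37 ± 0.35 (adjusted p = 0.042). CDK1, the mitotic kinase, read 7.86, 7.61, 7.70 and 8.20 in day 15 hCG arrays and 8.87, 8.89, 9.05 and 8.55 in untreated arrays. It fell by 1.00 ± 0.19 (adjusted p = 0.0081). Replicate 5 was the highest day 15 hCG array for both genes and untreated replicate 4 the lowest untreated array, so the groups came closest there.

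CCNB1, the cyclin partner of CDK1, fell by 1.15 ± 0.23 and MELK, a mitotic kinase, by 1.04 ± 0.25. CCNE2, a cyclin of S phase entry, averaged 6.63 ± 0.27 in day 15 hCG arrays and 7.54 ± 0.26 in untreated arrays, a fall of 0.92 ± 0.17 (adjusted p = 0.0070). FOXM1, a transcription factor of mitotic genes, fell by 0.90 ± 0.17 and CENPE, a kinetochore motor, by 0.45 ± 0.09. MKI67, a proliferation antigen, fell by 0.93 ± 0.23, although its lowest untreated array (7.27) was under its highest day 15 hCG array (7.39), and its call ended when any of 6 single arrays was left out (adjusted p up to 0.10). PCNA, a replication clamp, MCM2, a replicative helicase subunit, and E2F1, a transcription factor of S phase, differed by -0.30, -0.24 and 0.01 (adjusted p = 0.33, 0.44 and 0.97). The number of fallen members was 19 without untreated replicate 4, 9 without untreated replicate 1 or 3, 10 without day 15 hCG replicate 2 or 4, and 12 without untreated replicate 2 or day 15 hCG replicate 1. It was 18 without replicate 5, 6 when the fit held the 8 arrays only, and 9 when the filter was raised to the 75th percentile.

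**Figure D4:**
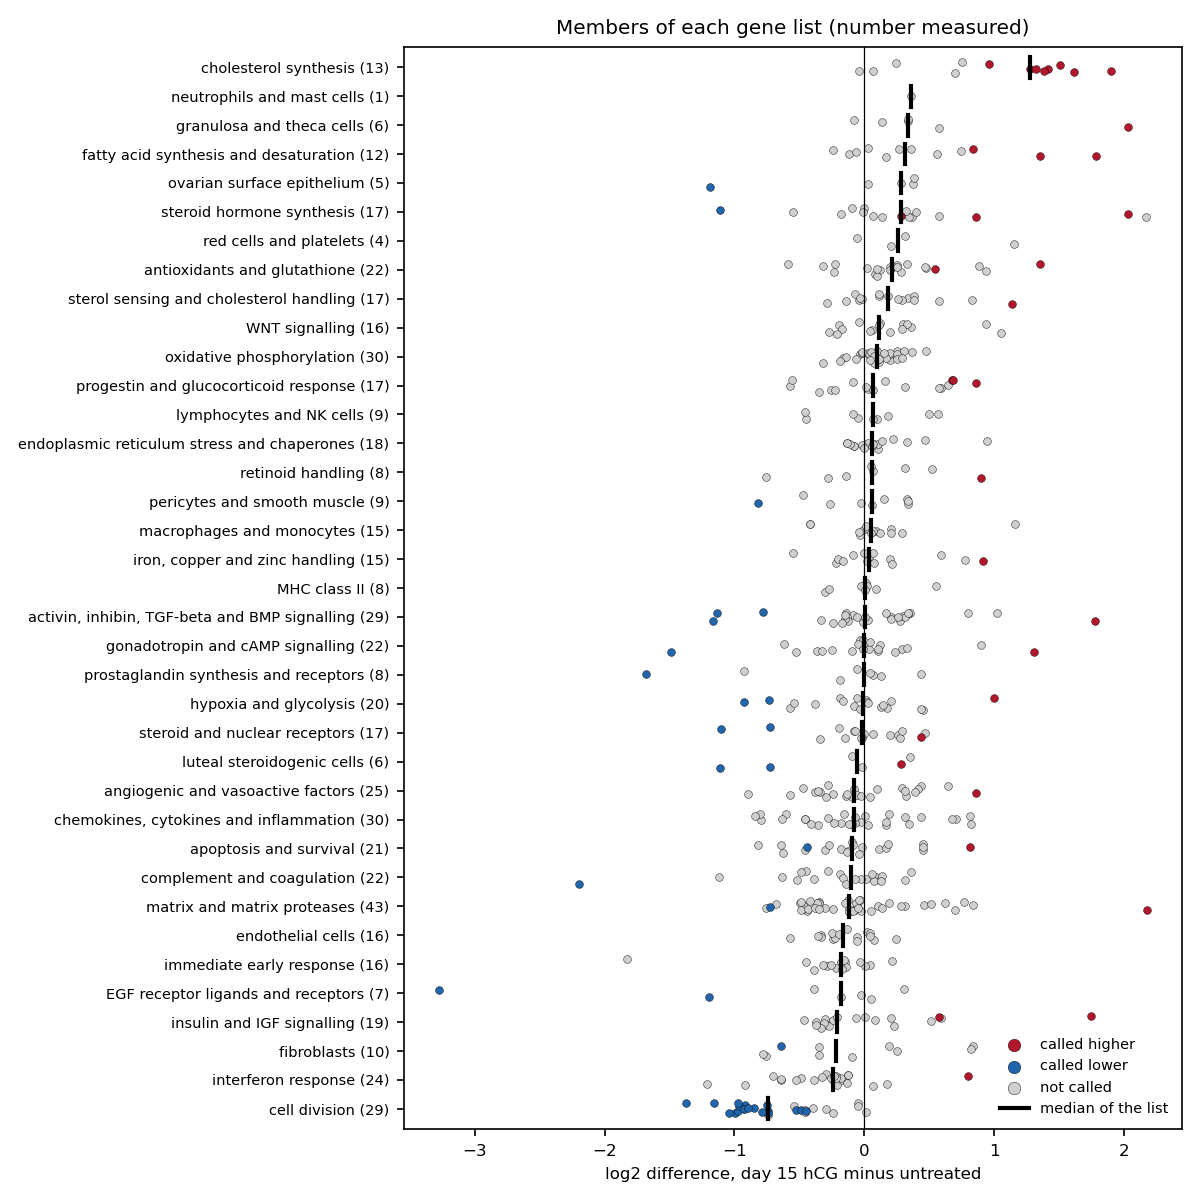
Each point is a gene's log2 difference, day 15 hCG minus untreated, in rows of 37 gene lists ordered by their median (black bar), with the number of measured genes in brackets; red and blue mark genes that rose and fell. Cholesterol synthesis lies at the top with a median of 1.27 and cell division at the bottom with -0.74. The other medians run from -0.24 (interferon response) to 0.36 (neutrophils and mast cells, 1 measured gene).

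Among EGF receptor ligands and receptors, 2 of 7 fell and none rose. Beside AREG, BTC, betacellulin, read 8.34, 8.21, 8.06 and 7.19 in day 15 hCG arrays and 9.10, 8.92, 9.18 and 9.37 in untreated arrays, a fall of 1.19 ± 0.26 (adjusted p = 0.018). With untreated replicate 4 left out BTC was no longer called (adjusted p = 0.055). EGFR and HBEGF, the receptor and another ligand, differed by 0.31 and -0.39 (adjusted p = 0.54 for each).

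Of 29 genes of activin, inhibin, TGF-beta and BMP signalling, 1 rose and 3 fell. The counts of this and the following lists stand beside 2.61 percent risen and 1.58 percent fallen over all genes. BAMBI, a decoy receptor that blunts BMP and activin signals, read 8.73, 9.13, 9.46 and 9.49 in day 15 hCG arrays and 7.29, 7.38, 7.32 and 7.70 in untreated arrays, a rise of 1.78 ± 0.21 (3.43-fold, adjusted p = 0.00062). ID4, a BMP-responsive inhibitor of helix-loop-helix factors, fell by 1.14 ± 0.18 and by 1.00 to 1.32 at its other 3 probe sets. FSTL3, which binds activin, fell by 1.17 ± 0.25, and BMP4, a ligand, by 0.78 ± 0.17. The calls of FSTL3 and BMP4 each ended when any of 4 single arrays was left out (adjusted p up to 0.065 and 0.076). FST, follistatin, lay at 9.55 to 9.84 in day 15 hCG arrays and 8.05 to 9.49 in untreated arrays without passing the test (difference 1.02 ± 0.31, adjusted p = 0.088).

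The prostaglandin list held 8 measured genes, of which 1 fell. PTGDR, the prostaglandin D2 receptor, read 5.75, 5.59, 5.72 and 5.98 in day 15 hCG arrays and 7.65, 8.25, 7.21 and 6.65 in untreated arrays, at least 2.34-fold lower (adjusted p = 0.0025), and its other probe set also fell. HPGD, which inactivates prostaglandins, differed by -0.93 (adjusted p = 0.19). In the list of gonadotropin and cyclic AMP signalling, 1 of 22 rose and 1 fell, and both are phosphodiesterases that degrade cyclic AMP. PDE7B rose by 1.30 ± 0.24, with 8.67 to 9.35 in day 15 hCG arrays and 7.28 to 8.12 in untreated arrays. PDE8B fell by 1.49 ± 0.38, with 6.86 to 7.77 in day 15 hCG arrays and 8.37 to 9.61 in untreated arrays, and its adjusted p of 0.042 passed 0.05 when any of 7 single arrays was left out, up to 0.14.

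Of 17 steroid and nuclear receptor genes, 1 rose and 2 fell. PGR, the nuclear progesterone receptor, read 6.38, 6.00, 5.45 and 5.86 in day 15 hCG arrays and 7.14, 6.98, 7.05 and 6.92 in untreated arrays, at least 1.76-fold lower (adjusted p = 0.023). PGRMC2, a membrane progesterone-binding protein, averaged 11.46 ± 0.15 in day 15 hCG arrays and 11.02 ± 0.13 in untreated arrays, a rise of 0.44 ± 0.12 (adjusted p = 0.048). NR5A2, liver receptor homologue 1, fell by 0.72 ± 0.18 and by 0.73 and 0.76 at its other 2 probe sets, whereas NR5A1, steroidogenic factor 1, differed by -0.02 (adjusted p = 0.96). The calls of PGR, PGRMC2 and NR5A2 ended when any of 3, 7 and 6 single arrays was left out (adjusted p up to 0.088, 0.13 and 0.092).

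Of 17 genes known to respond to progestins or glucocorticoids, 3 rose and none fell. SGK1, a kinase induced by corticosteroids, read 12.15, 12.22, 12.08 and 11.94 in day 15 hCG arrays and 11.59, 11.18, 11.48 and 11.41 in untreated arrays, a rise of 0.68 ± 0.10 (adjusted p = 0.0019). TSC22D3, the glucocorticoid-induced leucine zipper, also rose by 0.68, with an error of 0.14, and was not called with day 15 hCG replicate 4 left out (adjusted p = 0.057). ANGPTL4, a lipoprotein lipase inhibitor that is also in the angiogenic list, rose by 0.86 ± 0.20. FKBP5, another corticosteroid-induced gene, differed by -0.57 (adjusted p = 0.45).

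In the insulin and IGF list, 2 of 19 rose, both binding proteins. IGFBP1 read 13.87, 14.43, 14.20 and 14.25 in day 15 hCG arrays and 13.07, 11.79, 12.61 and 12.31 in untreated arrays, a rise of 1.74 ± 0.38 (3.35-fold, adjusted p = 0.020). IGFBP4 averaged 12.05 ± 0.10 in day 15 hCG arrays and 11.48 ± 0.27 in untreated arrays, a rise of 0.57 ± 0.12. Their calls ended when any of 4 and 3 single arrays was left out (adjusted p up to 0.058 and 0.065). The list's median was -0.21, but lay between -0.21 and 0.014 when single arrays were left out, highest without untreated replicate 2. The growth factor and receptor genes IGF1, IGF2 and IGF1R differed by -0.30, -0.07 and -0.29 (adjusted p = 0.69, 0.88 and 0.69).

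Of 25 angiogenic and vasoactive genes only ANGPTL4 rose. KDR and FLT1, the VEGF receptors, differed by -0.57 and -0.10 (adjusted p = 0.56 and 0.86). Of 43 matrix and protease genes, HTRA3 rose and COL5A2, a fibrillar collagen chain, fell by 0.73 ± 0.18. The list's median was -0.11, and -0.25 without day 15 hCG replicate 5, against 0.04 over all genes. Above 0 lay 13 of its 43 genes, against 5947 of all 10285 genes. Among 22 antioxidant genes 2 rose. MGST1, a membrane glutathione transferase, read 13.07, 13.33, 13.50 and 13.12 in day 15 hCG arrays and 11.64, 11.99, 12.20 and 11.74 in untreated arrays. It rose by 1.36 ± 0.13 (2.56-fold, adjusted p = 7e-05), and by 1.63 at its other probe set. SOD1, the cytosolic superoxide dismutase, rose by 0.55 ± 0.14 (adjusted p = 0.041).

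In the list of hypoxia and glycolysis, 1 of 20 rose and 2 fell. ALDOC, an aldolase, rose by 1.00 ± 0.22 and by 1.01 at its other probe set, SLC2A1, a glucose transporter, fell by 0.74 ± 0.19, and HK1, a hexokinase, fell by 0.93 ± 0.19 at its brightest probe set while its other 3 differed by -0.14 to 0.01. Of 21 apoptosis genes, BCL2L11, which promotes cell death, rose by 0.82 ± 0.15, although its other 2 probe sets differed by -0.01 and 0.36. APAF1, the apoptosome scaffold, fell by 0.44 ± 0.11. Of 8 retinoid genes, DHRS3, a retinal reductase, rose by 0.90 ± 0.23. None of 30 oxidative phosphorylation genes, 18 endoplasmic reticulum stress genes, 16 WNT genes and 16 immediate early genes passed the test. The calls of COL5A2, SOD1, SLC2A1, APAF1, ANGPTL4 and DHRS3 ended when any of at least 5 single arrays was left out (adjusted p up to 0.14), and those of ALDOC and HK1 when either of 2 was (adjusted p up to 0.063).

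Of 30 chemokine, cytokine and inflammation genes none passed the test, nor did any of the 8 genes of MHC class II. Of 24 interferon response genes 1 rose. ISG20, an antiviral exonuclease, read 8.80, 8.72, 8.87 and 8.27 in day 15 hCG arrays and 7.64, 8.45, 7.94 and 7.44 in untreated arrays, a rise of 0.80 ± 0.21 (adjusted p = 0.049) that lost its call when any of 6 single arrays was left out (adjusted p up to 0.15). The list's median was -0.24 with 3 of 24 genes above 0, against 5947 of all 10285 genes. It was -0.07 with all 33 arrays, -0.11 without untreated replicate 2, -0.37 without untreated replicate 1 and -0.38 without day 15 hCG replicate 2. Its lowest member, TAP1, a peptide transporter, differed by -1.21 (adjusted p = 0.11).

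Markers of the cell types of the gland showed few called genes, where 2.61 percent of all genes rose and 1.58 percent fell. None of 16 endothelial markers, 15 macrophage and monocyte markers, 9 lymphocyte and natural killer cell markers and 4 red cell and platelet markers passed the test. PECAM1, an endothelial marker, differed by -0.06, CD68, a macrophage marker, by 0.20, and HBB, beta globin, by 1.15 (adjusted p = 0.88, 0.70 and 0.13). Of 9 pericyte and smooth muscle markers, KCNJ8, a potassium channel subunit, fell by 0.82 ± 0.13 (adjusted p = 0.0028). Of 10 fibroblast markers, THY1, a surface glycoprotein, fell by 0.64 ± 0.15, and of 5 surface epithelium markers, KRT8, a keratin, fell by 1.19 ± 0.30. The calls of THY1 and KRT8 ended when any of 6 single arrays was left out (adjusted p up to 0.12). Of 6 luteal cell markers, STAR rose and HSD3B2 and NR5A2 fell, and of 6 granulosa and theca cell markers CYP17A1 rose. The summed linear levels overlapped between the groups for each of these marker lists: 57164 to 62875 in day 15 hCG arrays and 57572 to 65992 in untreated arrays for luteal cells, and 13266 to 19895 in day 15 hCG arrays and 15490 to 19004 in untreated arrays for endothelial cells. For fibroblasts the sums were 26561 to 30791 in day 15 hCG arrays and 26538 to 38051 in untreated arrays. For macrophages the sums were 10172 to 14941 in day 15 hCG arrays and 7018.5 to 18954 in untreated arrays. Such sums are weighted to the brightest probe sets of a list, so their overlap does not show that a cell type was unchanged. KIT, the only measured marker of neutrophils and mast cells, differed by 0.36 and did not pass the test. The share of these cell types in the differences above was not tested.

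The 4 arrays of day 10 hCG place these differences in time, and the comparison with them shares the day 15 hCG arrays with the comparison above. Against 1 day of hCG, 520 probe sets were higher after 6 days (1.87 percent) and 751 were lower (2.69 percent), 4.56 percent in all. Among the 10285 genes, 1.96 percent were higher and 3.23 percent lower than after 1 day. Of the 268 genes that rose against untreated, 88 were also higher than after 1 day, none were lower and 180 were not called. Of the 163 genes that fell, 73 were also lower than after 1 day, none were higher and 90 were not called.

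Several genes with large rises had means after 1 day near the untreated means. CYBRD1 averaged 10.44 ± 0.42 in untreated arrays, 10.34 ± 0.19 after 1 day and 12.34 ± 0.24 after 6 days, a difference of 2.00 ± 0.20 between 6 days and 1 day (adjusted p = 0.00016). MS4A8 averaged 7.66 in untreated arrays, 7.63 after 1 day and 10.02 after 6 days, with a difference of 2.39 ± 0.31 between 6 days and 1 day (adjusted p = 0.00079). PLEKHA4, DPYSL3, XKRX and ZDHHC19 were likewise higher after 6 days than after 1 day, by 2.04, 2.92, 1.89 and 1.58. SGK1 and FTL were higher by 0.70 and 0.90, and IGFBP1 by 1.43. TRPM3, BAMBI, PSME3, MGARP and MGST1 had means after 1 day between those of the other groups and were higher after 6 days than after 1 day by 1.06, 0.98, 0.97, 0.88 and 0.66.

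For the cholesterol synthesis genes no member passed the test between 6 days and 1 day, and their median difference was 0.02. EBP averaged 10.10 ± 0.40 in untreated arrays, 11.29 ± 0.41 after 1 day and 12.01 ± 0.40 after 6 days, and the difference between 6 days and 1 day was 0.71 ± 0.24 (adjusted p = 0.11). CYP17A1 averaged 8.64 ± 0.49, 10.08 ± 0.56 and 10.68 ± 0.33 in that order of days, and CEBPA 8.98 ± 0.20, 10.64 ± 0.41 and 10.95 ± 0.33. Between 6 days and 1 day CYP17A1 differed by 0.60 ± 0.27 (adjusted p = 0.24) and CEBPA by 0.30 ± 0.26 (adjusted p = 0.59).

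Among the falls, AREG averaged 13.49 ± 0.21 in untreated arrays, 13.28 ± 0.25 after 1 day and 10.21 ± 1.19 after 6 days, and was lower after 6 days than after 1 day by a difference of -3.07 ± 0.41 (adjusted p = 0.00087). F2RL1, GPI and TNFRSF12A differed by -1.74, -1.66 and -1.82 between 6 days and 1 day, and HSD3B2 by -1.50 ± 0.19 (adjusted p = 0.00079). Of the 29 cell division genes, 10 were lower after 6 days than after 1 day, with a median of -0.57. NEDD1 averaged 11.08 ± 0.37 in untreated arrays, 8.67 ± 0.41 after 1 day and 8.79 ± 0.31 after 6 days, a difference of 0.12 ± 0.21 between 6 days and 1 day (adjusted p = 0.82). S100A2 differed from 1 day by -0.72 (adjusted p = 0.49), and BTC averaged 7.95 after both 6 days and 1 day.

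TDRD9, a helicase of the piRNA pathway that guards the germ line, moved in both directions. It read 7.52, 6.90, 7.08 and 7.52 in untreated arrays, 9.05, 9.27, 8.96 and 9.62 after 1 day and 5.70, 5.57, 5.63 and 5.73 after 6 days. The 3 groups did not overlap. TDRD9 was higher after 1 day than in untreated arrays by 1.97 ± 0.33 (adjusted p = 0.0068), and after 6 days it was at least 2.06-fold lower than in untreated arrays (adjusted p = 0.014).

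**Figure D5:**
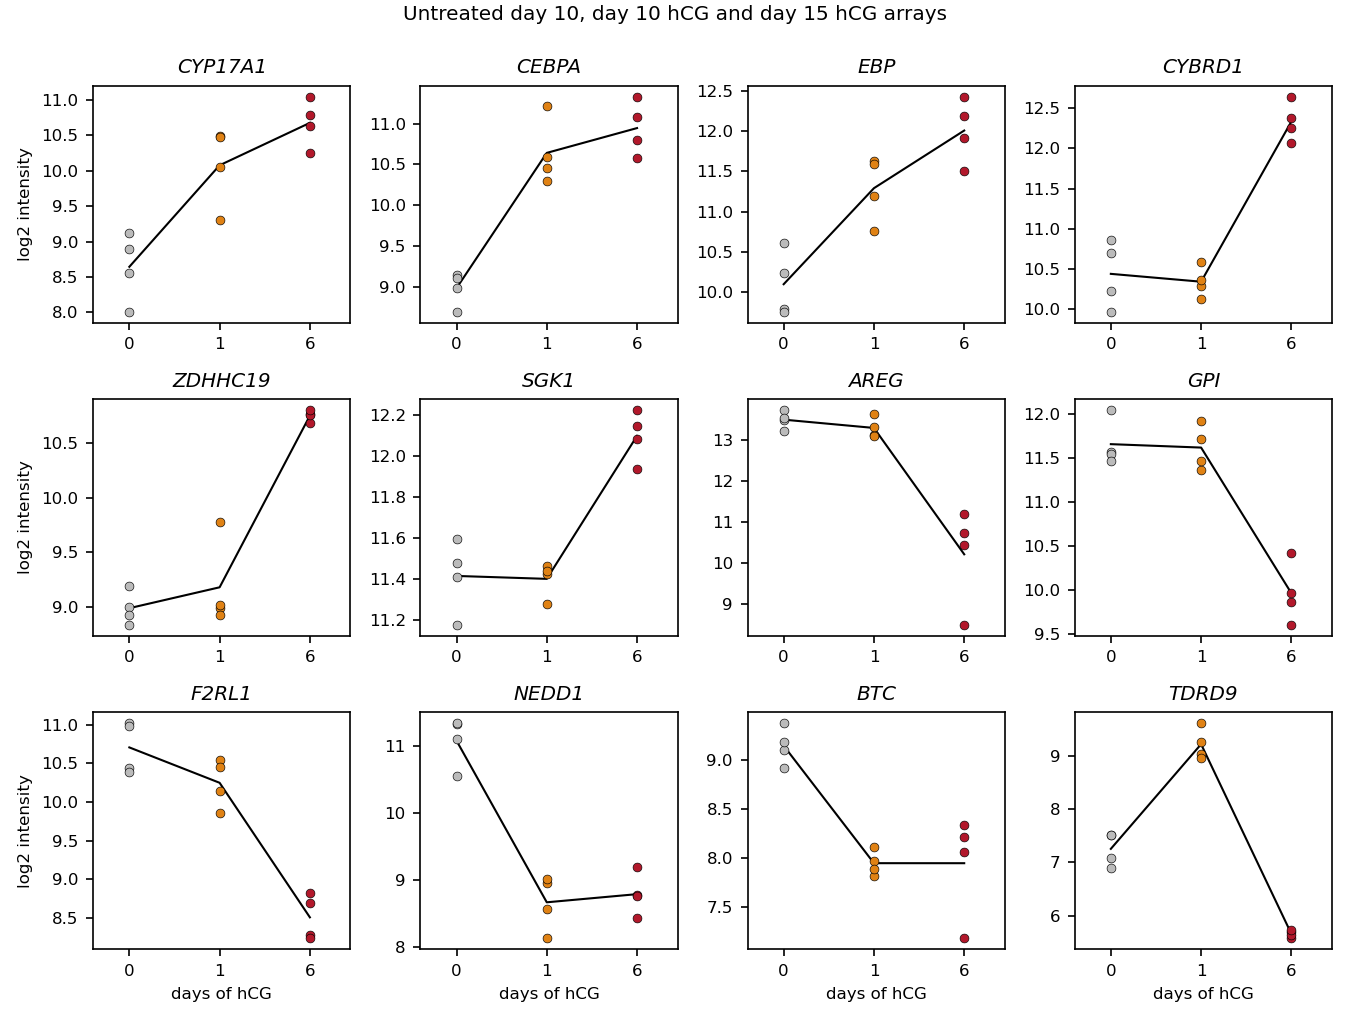
Points are single arrays and lines join the group means of log2 intensity for 12 genes over 0 (untreated), 1 and 6 days of hCG, each panel with its own vertical scale that does not start at 0. NEDD1 and BTC lie at like levels after 1 and 6 days, CYBRD1, SGK1, AREG and GPI lie near the untreated level after 1 day, and TDRD9 is highest after 1 day.

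The spread between arrays was wider in the day 15 hCG group: the median SD over genes was 0.21 in day 15 hCG arrays, 0.18 in day 10 hCG arrays and 0.15 in untreated arrays. For 7026 of 10285 genes the SD was larger in day 15 hCG than in untreated arrays. The cause of the wider spread was not tested. The genes with the largest SD within day 15 hCG were LUM, SFRP2, CRHBP, MBLAC2, ATP8A2 and ODAM, none of which passed the test. LUM, the matrix proteoglycan lumican, read 4.64, 10.97, 5.76 and 6.57 in day 15 hCG arrays and 4.78, 9.46, 5.76 and 4.58 in untreated arrays, and replicate 2 was the highest in both groups. SFRP2, a secreted WNT antagonist, read 7.31, 7.69, 10.67 and 5.91 in day 15 hCG arrays and 7.15, 8.13, 6.06 and 6.03 in untreated arrays. CRHBP, which binds corticotropin-releasing hormone, read 7.17, 8.45, 6.02 and 10.42 in day 15 hCG arrays and 9.13, 8.97, 10.24 and 9.82 in untreated arrays. The largest SDs within untreated arrays were those of MBLAC2, LUM, IDO1, PLAAT4, PXDNL and EYA4. IDO1, a tryptophan-degrading enzyme, and PLAAT4, an interferon-inducible phospholipase, were high in untreated replicate 2, at 12.04 and 10.74. The other 3 untreated arrays lay at 7.44 to 7.97 for IDO1 and 6.09 to 7.68 for PLAAT4.

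At the threshold, ISG20, DUSP16, MKRN1, ZNF518A and FOLR1 lay just inside with adjusted p-values of 0.049 to 0.050, and TMEM192, KYNU, NAXD, FAM117A and HMGB2 just outside with 0.051 to 0.052. The differences just inside were 0.80, 0.86, 1.03, -0.88 and 0.50, and those just outside 0.51, 1.83, 0.74, 0.37 and -0.69. KYNU, an enzyme of tryptophan breakdown, had the largest difference of these 10 and a second probe set that rose by 2.31.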

How the data were processed

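Each sample's luteal RNA was read on a Rhesus Genome array of Affymetrix. The deposited values are log2 intensities per probe set; how the authors corrected background, summarised probes and normalised arrays is not given here. They span 2.60 to 15.12, with array medians of 6.16 to 6.24 over the 8 arrays compared. The number of arrays limits the precision.

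Each array was centred on the median of 52707 probe sets, after 158 control probe sets of 52865 were left out. Probe sets that exceeded the overall median (6.21) on 4 or more of the 16 untreated, day 10 hCG, day 10 hCG with trilostane and day 15 hCG arrays of set 1 were kept (27867). These 16 arrays entered 1 fit with limma 3.58.1 in R 4.3.3 (lmFit and trended eBayes; 12 degrees of freedom were left for the residual), with Benjamini-Hochberg adjustment at 0.05. Symbols came from the platform annotation, with 16 updated through the Entrez gene ID; of the kept probe sets, 235 carried several symbols and 10473 none, and these were not named. The brightest kept probe set stood for a gene.

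Tested on simulated data for this comparison with 27867 probe sets, the fit recovered 74 percent of 100 true differences of 1 and 0 percent of 100 of 0.5, with 6 false calls. No other probe sets differed in the simulation, whereas 1034 were called in the data, and the errors were drawn independently. The recovered share depends on how many probe sets differ, so these shares need not hold for the data.

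The comparison and the 37 gene lists were chosen with earlier results of these data known. Named were the 20 largest rises and 20 largest falls without overlap between groups, up to 4 called members of each list by adjusted p, 9 genes chosen by name of which 6 were measured, the 6 most variable genes of each group, and the 5 genes on either side of the threshold. Other list members are given as values for context and were picked by their role. Alternatives were no filter, a filter at the 75th percentile, no centring, quantile normalization, no trend, the 8 arrays alone, all 33 arrays, replicate blocks by label and by array name, replicate 3 in place of 5, and leaving out each array.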

Additional observations from a re-analysis of the deposited data

Results flagged for a closer look

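Over 204 groups of 4 values (102 named genes in day 15 hCG and untreated arrays), 13 had 1 array standing apart, by Dixon's criterion for a single outlying value. For unselected and independent groups the criterion is met by about 1 in 20. That rate cannot be set against the 13, because some genes were named for their large SD in these groups and all share the same arrays. In day 15 hCG replicate 2 lay apart for PLEKHA4 (9.63), MRO (10.86), APAF1 (7.74), CYP19A1 (12.66), ATP8A2 (5.42) and NAXD (9.57), and replicate 5 for FOXM1 (7.03). In untreated arrays replicate 3 lay apart for HTRA3 (9.28), FDFT1 (11.63) and ALDOC (8.68), replicate 4 for TNFRSF12A (10.37), and replicate 2 for IDO1 (12.04) and PXDNL (4.29). Of the called genes among these, APAF1 lost its call when any of 7 single arrays was left out, HTRA3 when any of 5 was and ALDOC when either of 2 was (adjusted p up to 0.13, 0.069 and 0.063).

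TDRD9 differed between 1 and 6 days of hCG: it was called in opposite directions against the same untreated arrays, at least 2.06-fold lower after 6 days and higher by 1.97 ± 0.33 after 1 day. The fitted difference of 6 days minus 1 day was -3.57 (adjusted p = 9.2e-05, limma). Its size is not exact, because the day 15 hCG mean of 5.66 lay under 6.21, the median of all values.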

How the results depend on the processing

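The counts of 643 higher and 391 lower probe sets were 384 and 240 with the 8 compared arrays alone and 1111 and 534 with all 33 arrays. Leaving out single arrays gave 303 to 722 higher and 190 to 401 lower: 303 and 190 without day 15 hCG replicate 4, 316 and 195 without untreated replicate 1. Without untreated replicate 4, 365 were higher, and without untreated replicate 3, 234 were lower. Against 1 day of hCG the counts were 810 and 1137 with all 33 arrays. A replicate block by label number gave 463 and 277 against untreated and 332 and 403 against 1 day. A replicate block by the sample number in the array name, added after seeing the data, under which replicate 5 goes with untreated replicate 3, gave 510 and 339. Deviations of same-numbered arrays correlated by 0.25, 0.39, 0.41 and 0.08 for the array name numbers 1, 2, 3 and 4. Between unlike numbers the correlations ran from -0.32 to 0.10. The pair numbered 4 stayed under 0.1 and untreated replicate 4 correlated best with day 15 hCG replicate 2, so the pairing is a hint from the data and the block was not used. No centring gave 601 and 462. Cell division falls numbered 9 with the 75th percentile filter, 12 with all 33 arrays, 6 with the 8 arrays and 15 and 14 with the replicate blocks. Genes that did not pass the test changed sign: LUM (-0.49 without day 15 hCG replicate 2, up to 1.94 over single arrays left out), MBLAC2 (-0.15 and -0.50 without untreated replicates 3 and 4, -0.51 without day 15 hCG replicate 4, up to 1.14), ATP8A2 (-0.012 without untreated replicate 2, up to 1.84), ODAM (-0.32 without untreated replicate 4, -0.35 without day 15 hCG replicate 1, up to 1.03), IDO1 (0.97 without untreated replicate 2, 0.14 without day 15 hCG replicate 1, down to -0.56), PLAAT4 (0.48 without untreated replicate 2, down to -1.07), PXDNL (0.35 without day 15 hCG replicate 2, down to -1.41) and EYA4 (0.11 with all 33 arrays, 0.47 without untreated replicate 3, down to -1.02). The causes were not tested. Of 86 called named genes, 21 lost the call with the 8 arrays alone, 22 and 17 with the blocks, 13 with no filter, and 8 to 33 without single arrays. Of simulated differences of 0.5 the fit recovered 0 percent, while the smallest called rise among genes was 0.28 (STAR). Fewer probe sets differed in the simulation than were called in the data, so it does not bear on that call.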

Other observations

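The genes in the next paragraphs were picked after their values were seen and are grouped by what they are known to do, so the grouping is a description. Each was picked because it was called, so nothing is said of such genes in general. SLC11A1, a metal transporter of phagocytes, read 10.28, 10.32, 10.83 and 10.02 in day 15 hCG arrays and 9.19, 9.13, 9.24 and 9.08 in untreated arrays, a rise of 1.20 ± 0.17. BLVRB, a biliverdin reductase, rose by 1.11 ± 0.16. FLVCR2, of a haem transporter family, rose by 1.47 ± 0.31 and lost its call without either of 2 single arrays (adjusted p up to 0.062). On the iron, copper and zinc list 1 of 15 genes rose. PILRA, an inhibitory receptor of myeloid cells, rose by 1.26 ± 0.24, PTPN6, a phosphatase of blood cells, by 1.00 ± 0.21, and PTPN22, a phosphatase of lymphocytes, by 1.56 ± 0.35, the last losing its call without any of 4 single arrays (adjusted p up to 0.065). None of the 15 macrophage and monocyte markers and none of the 9 lymphocyte and NK cell markers passed the test, and the part of white cells in these values was not tested.

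UHRF1, a maintenance factor of DNA methylation, fell by 1.22 ± 0.20, NCAPG, a condensin subunit, by 1.17 ± 0.23, and GTSE1, a G2 and S phase protein, by 0.74 ± 0.14, with -0.38 and no call at its other probe set. E2F7, a repressor of the E2F family, was at least 1.41-fold lower, at 5.55 ± 0.24 in day 15 hCG arrays and 6.71 ± 0.19 in untreated arrays. ITGA2, an integrin that binds collagen, fell by 1.52 ± 0.22 and EZR, the membrane linker ezrin, by 0.84 ± 0.17. The other 3 probe sets of EZR ran from -1.02 to -0.73 without a call, and the other of KLF5 differed by 0.80 without one. Among transcription factors, FOXO4, KLF5 and NFE2L1 rose by 0.73 ± 0.12, 0.94 ± 0.20 and 0.71 ± 0.13, and GATA6, a factor of steroid-making gonadal cells, fell by 0.64 ± 0.15 and lost its call without any of 4 single arrays (adjusted p up to 0.081). CPT1A, which admits fatty acids to mitochondria, and PYGL, a glycogen phosphorylase, rose by 0.74 ± 0.13 and 1.21 ± 0.23 at their brightest probe sets. The other probe set of CPT1A differed by 0.26 without a call, and the other 5 of PYGL ran from -0.45 to 1.13, of which 1 rose. MRAP, which assists the corticotropin receptor, rose by 0.95 ± 0.18.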
